A study of Mus musculus with 18 samples.

Results

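Regulatory T (Treg) cells of 2 non-lymphoid organs, the liver and the lung, were set against Treg cells of 2 secondary lymphoid organs, the spleen and the lymph node. The comparison used 12 of the 18 poly(A) RNA libraries of the series, 3 per organ, chosen by the organ named in the labels, and asked which genes moved the same way in both tissues against both lymphoid organs. All 4 groups were Treg cells of wild-type Mus musculus, freshly prepared and untreated, and their labels differ only in the organ. The labels give no age, sex, sorting gate, method of cell isolation or pooling of animals, and do not say whether the 3 libraries of an organ came from separate mice. P-values therefore measure the spread between these libraries, which may be technical. The other 6 libraries, from bone marrow and blood, entered the model for the estimate of spread and are cited only as levels.

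Treg cells form the branch of the CD4 T cell lineage that depends on the factor Foxp3 and restrains immune responses. Most recirculate through lymphoid organs in a resting state, while a share settles in non-lymphoid tissues. Tissue Treg cells are known for the IL-33 receptor ST2 (Il1rl1), for the growth factor amphiregulin (Areg), which takes part in tissue repair, and for high levels of inhibitory receptors such as Ctla4.

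Expression was given as TPM (a length-normalized share of a library's RNA, scaled to a fixed total). The 16694 genes whose mean reached 1 TPM in any of the 6 organs were tested. The test was limma on log2(TPM + 1), on which scale the fold changes of low genes are understated. TPM keeps no library depth. The number of genes above 0 TPM was 14314 to 14408 in the liver libraries, 15219 to 15606 in lung, 16685 to 16756 in spleen and 18985 to 19297 in lymph node, so a gene listed at 0 in liver or lung may have been missed. Among genes of 100 TPM or more, the median coefficient of variation between the 3 libraries of an organ was 10.53% in liver, 8.0% in lung, 5.24% in spleen and 2.55% in lymph node. Mitochondrially encoded RNA made up 5.94% to 7.84% of TPM in liver and 8.09% to 8.92% in lung, against 5.70% to 5.79% in spleen and 4.90% to 5.11% in lymph node.

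The labelled cell type was checked against its markers. Summed TPM of 6 T cell and Treg markers (Cd3d, Cd3e, Cd3g, Cd4, Foxp3, Il2ra) was 1958 to 2176 in liver and 1644 to 1793 in lung, below the 2273 to 2339 of spleen and the 2643 to 2690 of lymph node (exact two-sided permutation test of 6 against 6 libraries, p = 0.00216, the smallest this design allows; libraries of an organ are not independent of it, and with organs as units the smallest p is 0.333). Foxp3 itself was present everywhere, at 149 ± 15.8 TPM in liver (SD, n = 3 here and below), 230.4 ± 7.65 in lung, 139.7 ± 9.03 in spleen and 238.5 ± 2.14 in lymph node. Its average contrast was 0.02 on the log2 scale (SE 0.05, limma adjusted p = 0.779). RNA of other cells was present to different degrees. Haemoglobin and other erythroid genes summed to 10930 to 11980 TPM in liver and 1430 to 1550 in lung, against 1859 to 2003 in spleen and 74.2 to 76.8 in lymph node. Genes of monocytes, macrophages and neutrophils, led by Lyz2, summed to 1722 to 1784 TPM in lung, 169 to 390 in liver, 621 to 770 in spleen and 39.36 to 81.03 in lymph node. Macrophage genes led by Chil3 summed to 660 to 752 TPM in lung and to at most 61.4 in the other 3 organs. The club cell gene Scgb1a1 stood at 225 TPM in lung and at 0 in liver and lymph node. The hepatocyte gene Alb stood at 5.39 TPM in liver. Endothelial and stromal genes were summed without Pecam1, the most abundant of the 14. They gave 26.7 to 40.2 TPM in liver, 4.77 to 6.63 in lung, 0.35 to 2.45 in spleen and 0.87 to 1.9 in lymph node. B cell genes were highest in spleen (546 to 618 TPM) and lowest in liver (63.3 to 106). What part these RNAs have in the results below was not tested, and in bulk RNA fewer cells of a type and less RNA per cell cannot be told apart.

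**Figure D1:**
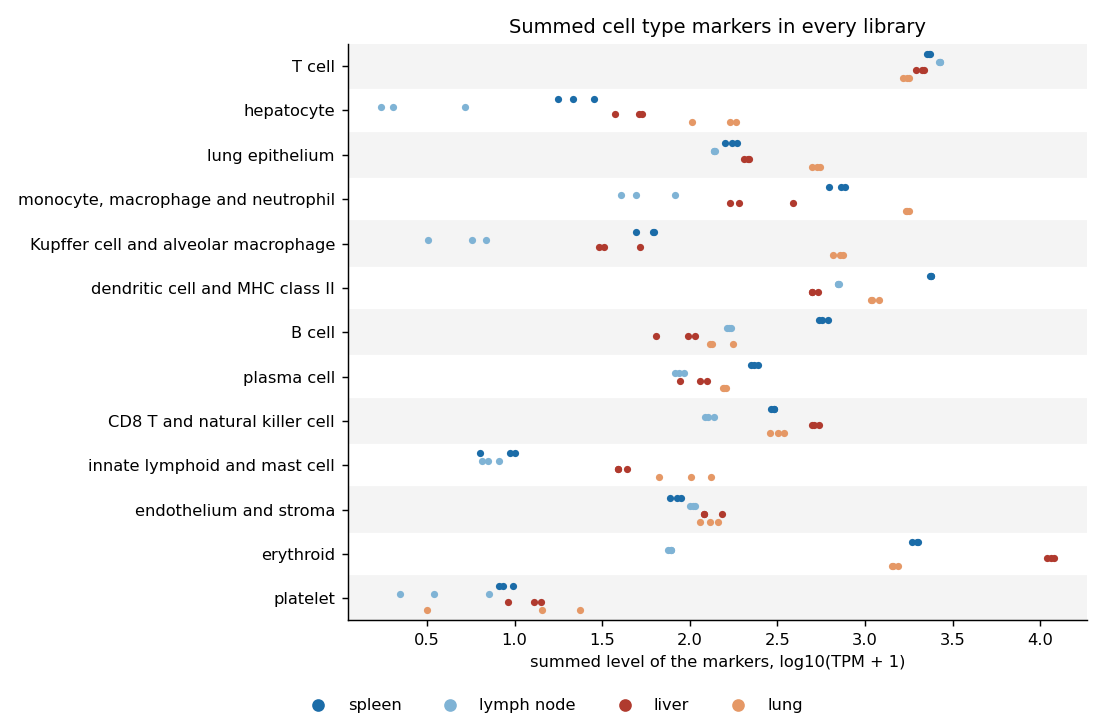
Summed TPM of each cell type marker list on a log10(TPM + 1) axis, 1 point per library, coloured by organ. The liver libraries stand apart in erythroid genes (10930 to 11980 TPM) and the lung libraries in macrophage genes (660 to 752 TPM).

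Liver and lung shared a broad set of differences from both lymphoid organs. The clearest were higher transcripts of the AP-1 family and other immediate early genes, of the cAMP-responsive gene Crem, of tissue Treg genes such as Areg and Il1rl1, and of the NF-kappaB inhibitor Tnfaip3. The B cell follicle receptor Cxcr5 and the folate receptor gene Izumo1r were lower. Averaged over both pairs of organs, 2719 genes were higher in liver and lung (16.3% of those tested) and 4896 were lower (29.3%), at a Benjamini-Hochberg adjusted p under 0.05 in limma. After scaling to T cell genes the majority reversed, with 4444 higher and 2333 lower. In the single contrasts, 2333 genes were higher and 2886 lower in liver than in spleen (14% and 17.3%), and 1577 and 3612 in liver than in lymph node (9.45% and 21.6%). In lung, 2997 were higher and 3813 lower than in spleen (18% and 22.8%), and 2489 and 4577 than in lymph node (14.9% and 27.4%). These 4 contrasts share their libraries in pairs and are not independent.

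A gene was counted as moving the same way when it passed the adjusted threshold in all 4 contrasts (liver and lung, each against spleen and lymph node) with 1 sign. By this rule 737 genes were higher in both tissues (4.41% of those tested) and 1074 were lower (6.43%). Of these, 701 and 937 had no overlap between the 6 liver and lung libraries and the 6 lymphoid libraries, against 871 (5.22%) and 1274 (7.63%) genes without overlap among all tested. When each contrast also had to reach a log2 fold change of 1 in size, 257 and 233 genes were left. The split between higher and lower depended on the scaling. Higher genes made up 40.7% of the same-direction genes on TPM as deposited, 51.4% after quantile normalization (908 higher, 857 lower), 62.4% with median-of-ratios factors (1057 higher, 636 lower) and 79.8% after scaling to 20 T cell genes (1293 higher, 328 lower). Of the 737 higher genes, 734 were also called after the T cell scaling, and of the 1074 lower genes, 328. With organ means as units, 2 organs against 2, limma called 0 genes in the average contrast, where 2383 had an unadjusted p under 0.05. At the edge of the rule, Snrpf and Dnaaf2 were the last genes inside, with a largest adjusted p of 0.0499 and 0.0496, and Rps19 and Drc1 the first outside, both just above 0.05.

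The 15 genes with the largest shared increase were Fosl2, Ramp3, Atf3, Crem, Gem, Tnfaip3, Areg, Rgs2, Ifrd1, Hspa1a, Lilr4b, Nr4a2, Cpm, Bhlhe40 and Calca, out of 584 candidates whose means reached 10 TPM in both tissues without overlap of libraries. They were ranked by the smallest of the 4 fold changes, which ran from 4.43 (Fosl2) to 3.14 (Calca) on the log2 scale. The 15 with the largest shared decrease, out of 723 candidates at that level in both lymphoid organs, were Angptl2, Cd160, BC147527, Gata1, Cd8a, Gsta4, Izumo1r, Susd3, Klc3, Ydjc, Gpr83, Abi3, Cxcr5, Maged2 and Ifrd2. Their smallest fold changes were smaller, from -2.43 (Angptl2) to -1.62 (Ifrd2). That no tissue library overlapped a lymphoid one for any of these genes follows from the ranking rule and is no result.

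**Figure D2:**
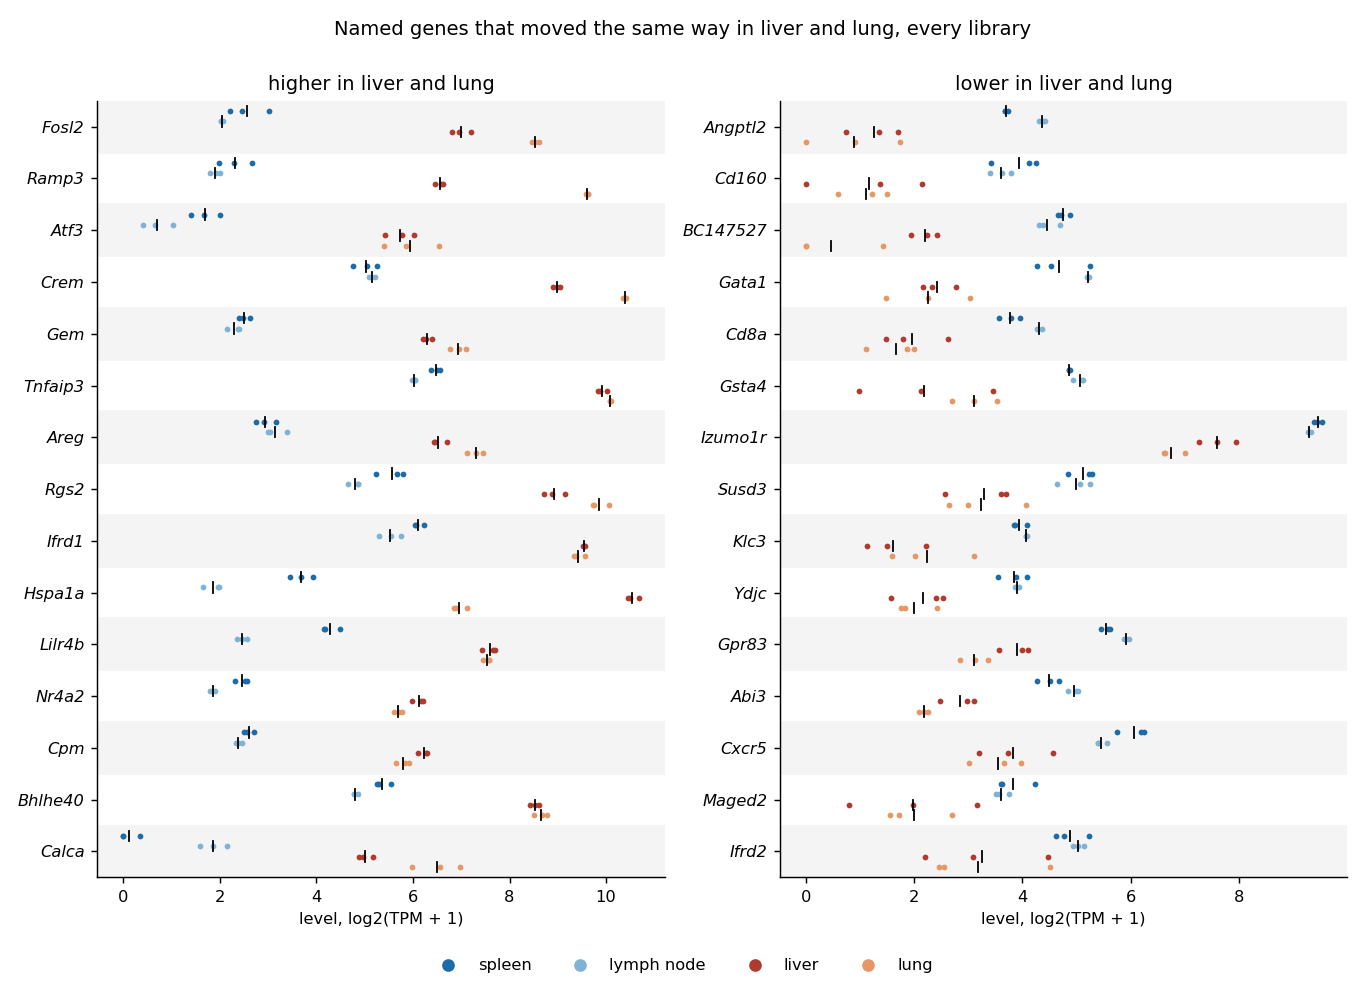
Level of the named genes in every library, log2(TPM + 1), with 1 point per library and a black line at the mean of each organ's 3 libraries. Genes are ordered by the smallest of the 4 fold changes, and in each row the liver and lung points lie wholly to the right (left panel) or wholly to the left (right panel) of the spleen and lymph node points.

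Transcription factors of the AP-1 family, which bind DNA as dimers of Fos, Jun and Atf proteins and are induced within minutes of cell stimulation or stress, stood first. Fosl2, a Fos family member, measured 123, 111 and 146 TPM in the 3 liver libraries and 351, 391 and 369 in lung. In spleen it measured 7.07, 4.48 and 3.66 TPM, and in lymph node 3.22, 3.1 and 3.08. Every tissue library was thus above every lymphoid one, and lung was above liver. The average contrast was 5.46 (SE 0.11, limma adjusted p = 2.08e-15), with bone marrow at 28.6 TPM and blood at 64.7 TPM in between.

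Atf3, a stress-induced member of the same family, measured 63.7, 41.9 and 53.7 TPM in liver and 57.0, 92.1 and 41.1 in lung. It stayed at 1.66 to 3.03 TPM in spleen and 0.34 to 1.05 in lymph node. Liver and lung overlapped each other and their difference did not pass the threshold (liver minus lung -0.19, adjusted p = 0.596), while both lay above the lymphoid organs (average contrast 4.63, SE 0.17, limma adjusted p = 6.35e-12). Blood had a mean of 84.3 TPM. Nr4a2, an orphan nuclear receptor that is induced early after stimulation, measured 68.6 ± 6.0 TPM in liver and 51.0 ± 3.1 in lung, against 4.53 ± 0.471 in spleen and 2.62 ± 0.131 in lymph node.

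Of the 36 tested genes of an AP-1 and immediate early list, 26 were higher in all 4 contrasts and 2 were lower, and the median average contrast was 2.07, against -0.15 over all tested genes. These are 72.2% and 5.56% of the list, against 4.41% and 6.43% of all tested genes. In the average contrast alone 30 were higher and 3 lower (83.3% and 8.33%, against 16.3% and 29.3% of all tested genes). The counts of the lists below are to be read beside these shares of all tested genes. The higher genes included Fos, Fosb, Jun, Junb and Jund, all 3 Nr4a receptors, and the phosphatases Dusp1 and Dusp5, which switch off MAP kinases. Nr4a1 was the most unequal of the Nr4a genes, at 3290 ± 135 TPM in liver and 785.5 ± 50.8 in lung, against 214.9 ± 7.51 in spleen and 236.6 ± 2.87 in lymph node (liver minus lung 2.07, adjusted p = 1.75e-13). Junb measured 2490 ± 221 TPM in liver, 1609 ± 89.9 in lung, 397.5 ± 6.88 in spleen and 263 ± 4.62 in lymph node.

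The list did not move as a block. Egr2 and Egr3, zinc finger factors that follow antigen receptor signals, were lower in both tissues. Egr3 measured 3.78, 6.21 and 7.22 TPM in liver and 1.3, 2.66 and 2.08 in lung, against 17.3 to 20.5 in spleen and 26.2 to 27.6 in lymph node (average contrast -2.40, SE 0.14, limma adjusted p = 1.57e-09). Egr2 stood at 4.48 ± 1.71 TPM in liver and 7.51 ± 1.04 in lung, against 20.6 ± 1.86 in spleen and 18.4 ± 1.98 in lymph node. Egr1 had means of 38.4 TPM in liver, 24.9 in lung, 29.5 in spleen and 38.9 in lymph node and did not pass in all 4 contrasts, and neither did Myc or Batf. Dusp2 went in opposite directions, at 303 TPM in liver and 133 in lung with 204 in spleen and 241 in lymph node.

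**Figure D3:**
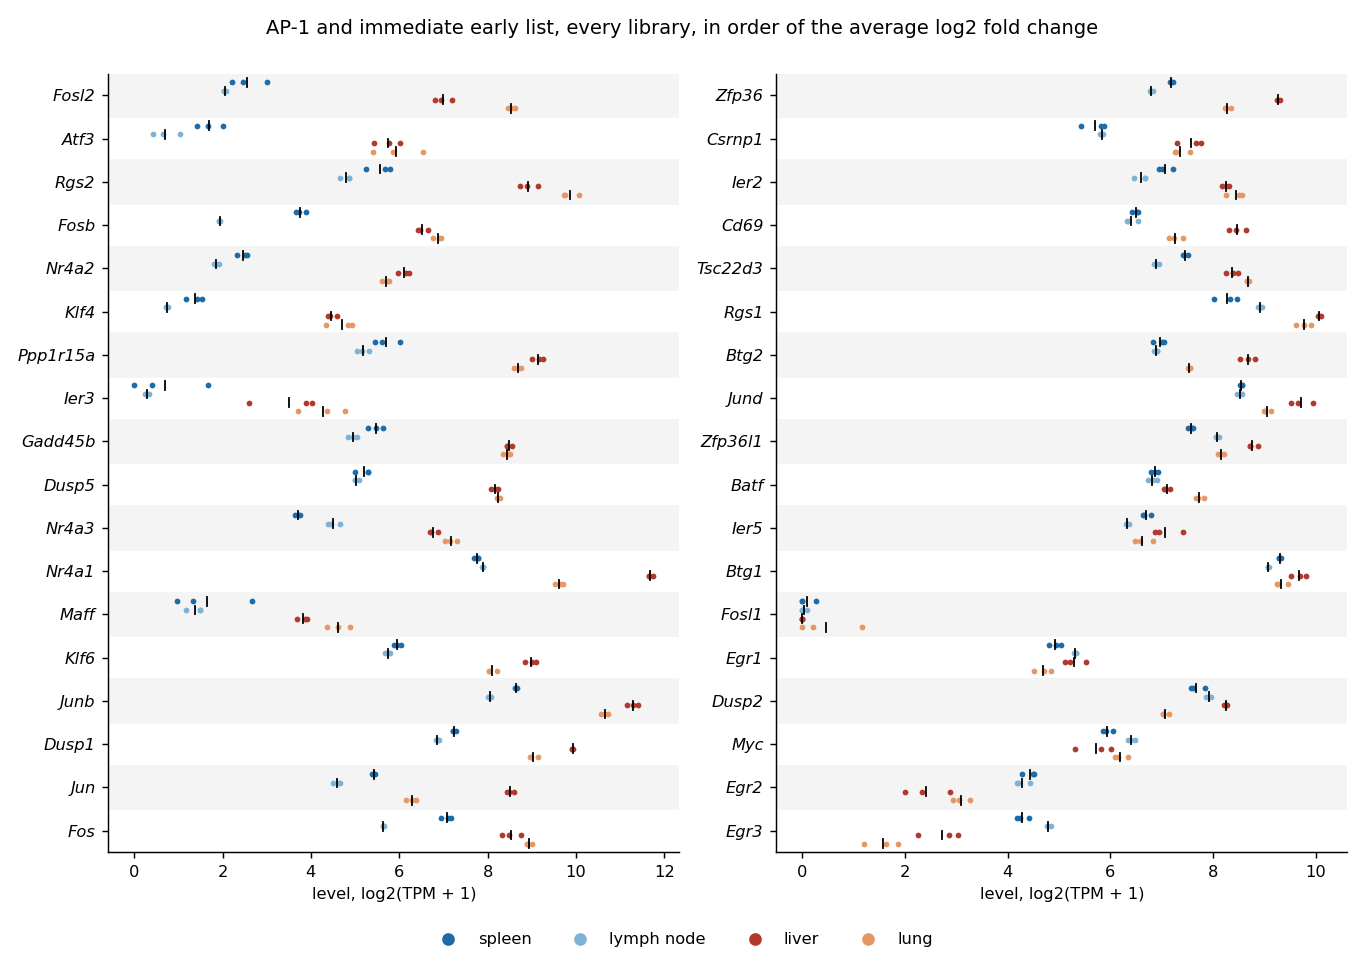
Level of the 36 AP-1 and immediate early genes in every library, log2(TPM + 1), ordered by the average contrast from the top of the left panel to the foot of the right. Points are libraries and black lines are organ means. Fosl2 stands first (average contrast 5.46) and Egr3 last (-2.40), with the tissue points to the right of the lymphoid ones in the left panel and to their left in the last 2 rows of the right panel.

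Genes of the cAMP pathway, in which receptors coupled to stimulatory G proteins raise cAMP and phosphodiesterases break it down, held 9 higher and 1 lower of 25 tested members (average contrast 14 higher and 3 lower, median 0.29). Crem, a cAMP-responsive transcription factor, measured 476, 529 and 504 TPM in liver and 1300, 1365 and 1345 in lung. Spleen gave 26.2, 37.0 and 32.2 TPM and lymph node 36.1, 34.1 and 33.0. The tissues stood above the lymphoid organs by 4.60 (SE 0.14, limma adjusted p = 3.84e-13), lung exceeded liver, and blood had 11.8 TPM.

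Ramp3, an accessory protein that gives the calcitonin receptor-like receptor its ligand specificity, differed widely between the tissues. It measured 87.0, 97.7 and 94.3 TPM in liver, 794, 770 and 784 in lung, 2.98 to 5.39 in spleen and 2.49 to 2.99 in lymph node. The average contrast was 5.97 (SE 0.13, limma adjusted p = 4.87e-15) and liver minus lung was -3.06 (adjusted p = 4e-09). Its relative Ramp1 went the other way, at 18.6 ± 2.93 TPM in liver and 13.2 ± 0.417 in lung, against 39.3 ± 2.44 in spleen and 44.1 ± 0.333 in lymph node (average contrast -1.36, adjusted p = 1.16e-09). The receptor Calcrl, with which both pair, had means of 14.9, 12.9, 8.67 and 10.3 TPM in liver, lung, spleen and lymph node and did not pass in all 4 contrasts. Calca, which encodes calcitonin and the neuropeptide CGRP, a ligand of that receptor, measured 28.6, 30.3 and 35.0 TPM in liver and 61.9, 93.5 and 124 in lung. It was listed at 0 in 2 of 3 spleen libraries and at 2.01 to 3.47 TPM in lymph node. The innate lymphoid and mast cell marker list holds Calca. Its sum was 5.33 to 9.06 TPM in spleen, 5.47 to 7.12 in lymph node, 37.71 to 42.96 in liver and 65.44 to 132 in lung. Without Calca the sum was 1.31-fold higher in the tissues. Il5 had means of 1.54 and 1.2 TPM in liver and lung against 0 and 0.0633 in spleen and lymph node. Il13 had 1.79 and 0 TPM against 0.207 and 1.78. The part of such cells in the Calca values was not tested.

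Among further members, the kinase Sik1 had 99.6 ± 14.0 TPM in liver and 142.2 ± 12.4 in lung against 13.2 ± 2.0 and 10.6 ± 0.0896 in spleen and lymph node. The phosphodiesterases Pde3b, Pde4a, Pde4b and Pde4d and the adenosine receptor Adora2a were also higher in all 4 contrasts. Pde4d reached 125.2 ± 6.18 TPM in lung and 39.6 ± 8.47 in liver, against 15.3 ± 0.33 in spleen and 19.8 ± 1.18 in lymph node. Neither Creb1 nor the catalytic subunits Prkaca and Prkacb of protein kinase A passed in all 4.

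The cAMP response element TGACGTCA, to which Creb and Crem proteins bind, was searched on both strands of RefSeq promoters (GRCm38.p6, 250 bases before to 50 after each start). A promoter was found for 552 of 736 higher and 802 of 1073 lower gene symbols. The element was present for 35 of the 552 higher genes (6.34%), for 21 of the 802 lower genes (2.62%) and for 364 of all 10751 tested genes with one (3.39%). The genes had 1.32, 1.29 and 1.27 promoters each on average. The AP-1 site (TGACTCA or TGAGTCA) was present for 5.98%, 4.11% and 4.68%, and the E-box CACGTG for 14.7%, 15.1% and 11.5%. A match is a description of the letters and not a site. Among the 54 named increases and higher members of the AP-1, cAMP and heat shock lists, 42 had a promoter and 5 of these held the full cAMP response element. Of the named genes alone, 1 of 12 increases with a promoter (Areg) and 0 of 11 decreases held it. Their promoter stretches are printed below, 5′ to 3′ on the gene's strand and ending before the start, with the element in capitals. They lie at chr5:91139498-91139585 (Areg, plus strand), chr17:26508568-26508655 (Dusp1, minus), chr1:134079274-134079361 (Btg2, minus), chr15:79347451-79347519 (Maff, plus) and chr7:45526269-45526320 (Ppp1r15a, minus).
Areg: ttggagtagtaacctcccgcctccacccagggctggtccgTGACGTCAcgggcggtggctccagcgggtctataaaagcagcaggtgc
Dusp1: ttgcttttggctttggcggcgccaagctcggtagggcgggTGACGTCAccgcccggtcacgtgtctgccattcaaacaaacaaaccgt
Btg2: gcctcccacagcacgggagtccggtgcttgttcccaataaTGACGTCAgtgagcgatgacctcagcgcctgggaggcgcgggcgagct
Maff: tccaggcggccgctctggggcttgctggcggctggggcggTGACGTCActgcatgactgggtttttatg
Ppp1r15a: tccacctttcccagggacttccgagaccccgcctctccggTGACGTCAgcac

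These 5 genes came from genes already called higher in both tissues, so their direction is no result. The size of the difference varied. Areg measured 86.8, 103 and 85.2 TPM in liver and 139, 175 and 158 in lung, against 5.71 to 7.93 in spleen and 6.98 to 9.55 in lymph node (average contrast 3.87, SE 0.13, limma adjusted p = 1.01e-12), and 0.473 TPM in blood. Ppp1r15a, a regulatory subunit that restores translation after stress, stood at 566.2 ± 50.9 TPM in liver and 409.2 ± 23.9 in lung, against 51.4 ± 11.1 and 35.2 ± 3.61. Dusp1 (968.4 ± 8.53 and 520.5 ± 34.1 TPM against 150 ± 4.28 and 115.6 ± 3.46) and the antiproliferative gene Btg2 (409.8 ± 40.7 and 185.1 ± 3.04 against 123.8 ± 9.2 and 117.9 ± 2.65) were higher in liver than in lung. Maff, a small Maf factor, was low everywhere, at 13.1 ± 1.06 and 23.8 ± 4.43 TPM against 2.59 ± 2.37 and 1.61 ± 0.315.

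Genes of effector and tissue Treg cells held 23 higher and 2 lower of 44 tested members, with 35 higher and 7 lower in the average contrast and a median of 1.25. Il1rl1, which encodes the IL-33 receptor ST2, measured 152, 180 and 136 TPM in liver and 290, 255 and 254 in lung. Spleen had 19.1, 19.0 and 14.1 TPM and lymph node 27.6, 26.7 and 22.1, so no tissue library came near a lymphoid one (average contrast 3.22, SE 0.09, limma adjusted p = 1.47e-13). The nuclear receptor Rora (128 ± 11.3 and 152.1 ± 13.5 TPM in liver and lung, 12.6 ± 1.45 and 15.9 ± 0.731 in spleen and lymph node) and the clock and hypoxia factor Bhlhe40 (367.7 ± 24.1 and 403.5 ± 36.5 against 40.5 ± 4.74 and 26.9 ± 0.929) had liver and lung levels whose difference did not pass the threshold (adjusted p = 0.14 and 0.371). Pparg, a nuclear receptor of fat tissue Treg cells and of alveolar macrophages, reached 9.12 ± 0.992 TPM in liver and 11.7 ± 0.907 in lung against 1.37 ± 0.717 and 0.333 ± 0.295. Macrophage markers summed to 29.5 to 50.8 TPM in liver, 660 to 752 in lung, 48.1 to 61.4 in spleen and 2.21 to 5.82 in lymph node, and the Kupffer cell gene Clec4f had 8.497 TPM in liver and 0 in spleen. Their part in the Pparg values was not tested.

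Ctla4, the inhibitory receptor through which Treg cells remove costimulatory ligands, measured 987, 1125 and 1082 TPM in liver and 1554, 1460 and 1443 in lung. Spleen had 187 to 210 TPM and lymph node 327 to 348, and the average contrast was 2.27 (SE 0.04, limma adjusted p = 6.78e-16). Icos, Tigit, Pdcd1, Cd28 and Cd200r1 were the other 5 of 20 inhibitory and costimulatory receptors that were higher in all 4 contrasts. Another 6 were lower: Lag3, Cd27, Cd160, Btla, Vsir and Cd200, the last lost in 10 of 26 settings. The list's median was -0.12 and turned to 0.22 with T cell scaling. Lag3, an inhibitory receptor for MHC class II, measured 11.3, 10.6 and 7.64 TPM in liver and 3.32, 6.07 and 5.5 in lung, against 27.4 to 33.7 in spleen and 81.6 to 84.0 in lymph node. Gzmb, the cytotoxic protease granzyme B, was higher, at 51.6 ± 7.55 TPM in liver and 141.1 ± 15.5 in lung against 6.1 ± 2.3 and 15.4 ± 0.468.

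Of 18 Treg core genes, 1 (Ctla4) was higher and 3 (Il2ra, Gpr83, Izumo1r) were lower in all 4 contrasts. These are 5.56% and 16.7%, against 4.41% and 6.43% of all tested genes. In the average contrast 5 were higher and 6 lower (27.8% and 33.3%, against 16.3% and 29.3%). The median of -0.06 turned to 0.27 under T cell scaling and to 0.085 with median-of-ratios factors. Izumo1r, the folate receptor FR4, measured 192, 152 and 243 TPM in liver and 97.8, 128 and 96.9 in lung. It stood at 694, 734 and 662 TPM in spleen and 627, 615 and 638 in lymph node, so the ranges were far apart (average contrast -2.20, SE 0.09, limma adjusted p = 2.29e-11). Gpr83, a G protein-coupled receptor enriched in Treg cells, had 14.0 ± 2.76 TPM in liver and 7.73 ± 1.52 in lung against 45.8 ± 2.77 and 59.3 ± 1.94. Il2ra, the IL-2 receptor alpha chain CD25, had 84.3 ± 14.5 and 76.3 ± 6.65 TPM against 127.9 ± 3.43 in spleen and 233.7 ± 7.71 in lymph node. Cd8a, a marker of CD8 T cells, was also among the named decreases, at 1.78 to 5.19 TPM in liver, 1.17 to 3.01 in lung, 10.9 to 14.6 in spleen and 18.3 to 19.6 in lymph node.

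Trafficking receptors, which set where T cells go and stay, held 15 higher and 3 lower of 35 tested members (20 and 9 in the average contrast, median 0.63). Cxcr4, the receptor for Cxcl12, measured 603, 597 and 532 TPM in liver and 412, 429 and 469 in lung, against 84.12 to 98.03 in spleen and 52.7 to 57.5 in lymph node (average contrast 2.82, SE 0.05, limma adjusted p = 2.61e-16). Bone marrow, at 620 TPM, and blood, at 349 TPM, were also high. The chemokine receptors Ccr2, Ccr4, Ccr8, Cxcr3 and Cxcr6 and the integrin chains Itgav and Itgb1 were higher too. Ccr2 had 130.5 ± 21.6 TPM in liver and 154.2 ± 11.8 in lung against 22.1 ± 2.34 and 43.7 ± 1.05, and 355 in blood. Ccr1 and Ccr3, receptors that myeloid cells also carry, were higher at no more than 11.3 TPM.

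Cxcr5, which leads lymphocytes into B cell follicles and marks follicular T cells, was lower in both tissues. It measured 8.23, 22.6 and 12.3 TPM in liver and 14.7, 7.1 and 11.6 in lung, against 52.5, 74.8 and 71.9 in spleen and 46.4, 41.2 and 40.8 in lymph node (average contrast -2.07, SE 0.20, limma adjusted p = 5.81e-07). B cell genes, which share this receptor, summed to 63.3 to 106 TPM in liver and 129 to 176 in lung. Their sum was 546 to 618 TPM in spleen and 162 to 170 in lymph node. The part of B cell RNA in the Cxcr5 values was not tested. Itgal and Itgb2, the 2 chains of the integrin LFA-1, were lower as well, though the call of Itgb2 was lost in 15 of 26 alternative settings (largest adjusted p of 0.0448 in the main setting and up to 0.198). Itgal had 207.4 ± 18.9 TPM in liver and 149.4 ± 7.4 in lung against 291.5 ± 6.87 and 355.3 ± 3.58.

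Genes of resting and recirculating T cells were split, with 5 higher and 7 lower of 30 and a median of -0.16, which turned to 0.18 under T cell scaling. The higher ones were S1pr1, the egress receptor, its activator Klf2, Klf3, whose call was lost in 6 of 26 settings, Il7r and Gpr183. Klf2 had 643.1 ± 70.2 TPM in liver and 342.7 ± 14.6 in lung against 203.4 ± 12.3 and 185.4 ± 6.09, and 776 in bone marrow. Il7r, the IL-7 receptor, had 196.4 ± 9.09 and 459.5 ± 28.4 TPM against 76.0 ± 4.08 and 66.4 ± 1.27. Tcf7, Id3, Il6ra, Bcl2, Txnip, Nsg2 and Tspan32 were lower. Id3, which holds back E proteins in resting T cells, had 34.3 ± 5.09 TPM in liver and 17.8 ± 5.61 in lung against 66.4 ± 1.47 and 80.8 ± 1.7.

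Among NF-kappaB genes and responses to TNF receptors, 11 of 28 were higher and 2 were lower (21 and 2 in the average contrast, median 0.59). Tnfaip3, which encodes the NF-kappaB inhibitor A20, measured 1029, 914 and 940 TPM in liver and 1082, 1099 and 1082 in lung, against 82.0 to 92.8 in spleen and 62.6 to 64.7 in lymph node. Its average contrast was 3.75 (SE 0.04, limma adjusted p = 2.48e-18). Liver lay below lung by a small difference that passed the threshold (liver minus lung -0.18, limma adjusted p = 0.0172). Nfkbia, another inhibitor, had 881.3 ± 50.1 and 773.9 ± 59.4 TPM against 296.5 ± 9.12 and 251.5 ± 7.25. Lta and Ltb, the lymphotoxins that signal to lymphoid stroma, were lower. Ltb measured 502, 472 and 516 TPM in liver and 281, 286 and 296 in lung, against 1064 to 1154 in spleen and 1056 to 1074 in lymph node (average contrast -1.52, SE 0.03, limma adjusted p = 1.75e-15).

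The heat shock and chaperone list held 11 higher and 3 lower of 25 members (16 and 6 in the average contrast, median 0.60), and liver led it. Hspa1a, an inducible Hsp70, measured 1397, 1449 and 1640 TPM in liver and 114, 118 and 138 in lung. Spleen had 9.94 to 14.2 TPM and lymph node 2.17 to 2.96 (average contrast 5.97, SE 0.10, limma adjusted p = 2.56e-16). Liver thus stood above lung by 3.59 on the log2 scale (adjusted p = 5.05e-11). Its near-identical copy Hspa1b, with which it shares reads, had 2470 ± 261 TPM in liver, 198.6 ± 10.2 in lung, 39.2 ± 2.52 in spleen and 10.8 ± 0.83 in lymph node, and the separate values of the pair are uncertain. The Hsp40 gene Dnajb1 had 258.7 ± 15 and 87.7 ± 9.03 TPM against 41.4 ± 0.131 and 43.4 ± 0.141. The cochaperones Ahsa1, Stip1 and Fkbp4 were lower, though under T cell scaling the contrast closest to 0 was -0.004 for Ahsa1 (largest adjusted p = 1.0 in limma) and -0.174 for Fkbp4 (0.168), with Stip1 at 101 ± 12.5 and 55.6 ± 6.52 TPM against 150.1 ± 9.47 and 166.4 ± 4.0.

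Glucocorticoid response genes held 9 higher and 0 lower of 13 (10 and 1 in the average contrast, median 1.94). The receptor gene Nr3c1 itself had 133.4 ± 8.2 TPM in liver and 254.6 ± 20.6 in lung against 47.3 ± 3.38 and 66.1 ± 3.48. Sgk1 (63.8 ± 10.4 and 154.7 ± 21.4 TPM against 8.95 ± 0.427 and 11.2 ± 2.14) and the clock gene Per1 (109.6 ± 13.5 and 101 ± 6.2 against 18.2 ± 0.485 and 22.9 ± 1.6) were higher, while Fkbp5, another known target, had means of 39.4 and 29.4 TPM in liver and lung with 52.9 and 49.8 in spleen and lymph node. The list shares Dusp1, Sik1, Tsc22d3 and Il7r with lists described above. RNA decay and antiproliferative regulators, whose proteins destabilize mRNAs or slow division, held 7 higher and 0 lower of 16 (11 and 0, median 0.59), among them Zfp36, Zfp36l2, Zc3h12a, Tob1 and Tob2. Tob1 had 41.5 ± 5.85 TPM in liver and 65.7 ± 3.13 in lung against 14.2 ± 2.19 and 15.6 ± 1.2.

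Genes of glycolysis and hypoxia held 12 higher and 1 lower of 25 (17 and 4 in the average contrast, median 0.39). Hif1a, the oxygen-regulated transcription factor, measured 145, 183 and 183 TPM in liver and 470, 463 and 465 in lung, against 86.7 to 93.4 in spleen and 100.2 to 105 in lymph node (average contrast 1.54, SE 0.05, limma adjusted p = 2.37e-12). Lung stood clearly above liver for it, as for Mxi1 (146.2 ± 19.8 against 46.2 ± 9.72 TPM). Of the hexokinases, Hk2 was higher (average contrast 1.52) and Hk1 lower (-0.86). Their calls were lost in 5 (Hk2) and 14 (Hk1) of 26 settings. The glycolytic enzyme Gapdh had means of 1443 TPM in liver, 1482 in lung, 936 in spleen and 1057 in lymph node. The unfolded protein and integrated stress list held 9 higher and 1 lower of 26 (13 and 5, median 0.30), with Atf4, Xbp1 and the sensor kinase Ern1 among the higher. Ern1 had 54.7 ± 1.14 TPM in lung and 13.8 ± 3.47 in liver against 4.43 ± 0.635 and 5.25 ± 0.437, whereas the organ means of Ddit3 lay between 49.88 and 60.45 TPM.

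Cytokine genes and their receptors held 7 higher and 4 lower of 35 (17 and 9, median 0.32). Ifngr1, the ligand-binding chain of the interferon gamma receptor, measured 619, 648 and 594 TPM in liver and 1732, 1756 and 1721 in lung, against 137 to 155 in spleen and 130.1 to 134 in lymph node (average contrast 2.90, SE 0.03, limma adjusted p = 3.39e-18). Il18r1 and Il18rap, the IL-18 receptor chains, were higher, and Il6ra and Il27ra were lower, the former with its call lost in 6 of 26 settings (largest adjusted p up to 0.0682). Ifng was highest in liver, at 77.2 ± 7.94 TPM, while lung (9.43 ± 5.3) against spleen (7.71 ± 2.42) did not pass. Markers of CD8 T and natural killer cells, which also make Ifng and Gzmb, summed to 495.5 to 547.3 TPM in liver, 286.2 to 344.8 in lung, 289.3 to 301.5 in spleen and 121 to 136 in lymph node. Without Ccl5, the most abundant of the 14, the ranges were 87.1 to 143.8, 131.3 to 150.3, 130.1 to 136.3 and 88.0 to 96.6 TPM, and their part in these 2 genes was not tested. In the survival list (3 higher, 2 lower of 20; 8 and 8 in the average contrast, median 0.01), Pmaip1, which encodes the death-promoting protein Noxa, had 116.7 ± 18 and 77.0 ± 10.7 TPM against 11.2 ± 3.01 and 5.79 ± 0.731. The IL-2 and STAT5 list had 2 higher and 4 lower of 18 (8 and 6, median 0.13, which turned to -0.031 after quantile normalization).

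T cell receptor complex and signalling genes had 2 higher and 9 lower of 28 in all 4 contrasts (9 and 17 in the average contrast) and a median of -0.31 that turned to 0.03 under T cell scaling, which is built in part on these genes. Liver against spleen alone gave 9 higher and 9 lower with a median of 0.03. The kinase Lck measured 739, 624 and 682 TPM in liver and 286, 301 and 313 in lung, against 863 to 956 in spleen and 1104 to 1152 in lymph node (average contrast -1.17, SE 0.04, limma adjusted p = 2.93e-12). The adaptor Lat had 501.7 ± 32.1 and 223.1 ± 8.67 TPM against 774 ± 32.1 and 738.6 ± 3.35. Ptpn22 and Sla, which restrain receptor signals, were the 2 higher members. Cytosolic ribosomal protein genes were lower in all 4 contrasts in 35 of 81 cases and higher in 0, with a median of -0.27 that turned to 0.06 under T cell scaling. Only Rplp0, Rpl13, Rps26 and Rps15a of the 35 were followed singly under the alternatives. For all 4, the most positive of the 4 contrasts was above 0 under T cell scaling. The summed share of all ribosomal protein genes was 20.91% to 22.51% of TPM in liver and 20.37% to 20.87% in lung, against 26.7% to 26.9% in spleen and 23.71% to 23.74% in lymph node.

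Interferon response genes had 0 higher and 4 lower of 30 (8 and 13, median -0.28), led by Usp18, an interferon-induced protease, at 8.75 ± 2.87 TPM in liver and 4.74 ± 0.564 in lung against 25.6 ± 5.05 and 27.7 ± 1.55. The tissues differed in this list. Against spleen, liver had 13 higher and 6 lower (median 0.15) and lung 3 and 17 (-0.67). Against lymph node, liver had 8 and 5 (0.13) and lung 3 and 17 (-0.55). In liver minus lung, 22 were higher and 2 lower. Cell cycle genes had 1 higher (Pcna, lost in 7 of 26 settings) and 1 lower (Mcm5) of 26 (2 and 4, median -0.01). These shares, 3.85% each way in all 4 contrasts, were not above those of all tested genes (4.41% and 6.43%). The median near 0 averaged tissues that differed. Liver had 12 higher and 1 lower against spleen (median 0.50) and 5 and 2 against lymph node (0.27). Lung had 2 and 5 (-0.19) and 1 and 15 (-0.72). Liver minus lung gave 15 higher and 1 lower (median 1.04). The proliferation marker Mki67 had means of 32.7, 13.4, 13.4 and 24.1 TPM in liver, lung, spleen and lymph node. Cholesterol synthesis genes had 4 higher and 2 lower of 25 (10 and 4, median 0.14). Among 8 GIMAP GTPases, Gimap6 was higher and Gimap1 and Gimap3 were lower (4 and 2, median 0.11). For the lower pair, the most positive of the 4 contrasts was above 0 under T cell scaling (0.21 and 0.50). It was also above 0 with median-of-ratios factors (0.034 and 0.145). Mitochondrially encoded genes had 5 higher and 0 lower of 15 (9 and 0, median 0.30), but mt-Co3, one of the 5, ranged from 1432 to 8231 TPM among the 3 liver libraries and was lost in 12 of 25 settings. The list as a whole was higher in lung only. Lung had 11 higher and 0 lower against spleen (median 0.77) and 13 and 0 against lymph node (0.82). Liver had 5 and 5 (0.01) and 6 and 4 (-0.09).

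**Figure D4:**
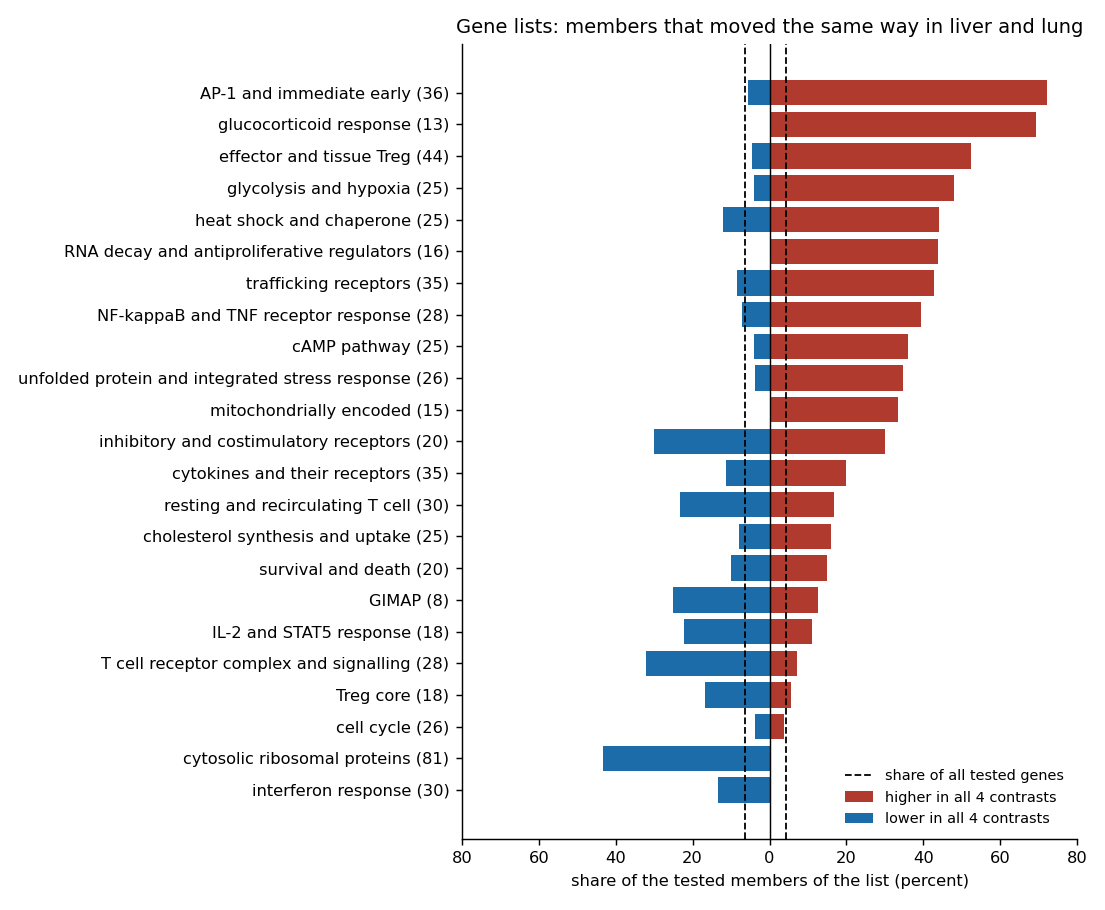
Share of the tested members of each gene list (number in parentheses) that were higher (red, to the right) or lower (blue, to the left) in all 4 contrasts. Dashed lines mark the shares over all tested genes, 4.41% higher and 6.43% lower, and the AP-1 and immediate early list has the longest bar (72.2%).

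Levels could still differ between the tissues. Of the 737 higher genes, 393 (53.3%) also differed between liver and lung in limma (adjusted p under 0.05), and of the 1074 lower genes, 338 (31.5%), against 34.9% of all tested genes (17.6% higher in liver, 17.3% lower). A further 44 genes (0.264%) were higher in lung and lower in liver than in both lymphoid organs, and 53 (0.317%) were higher in liver and lower in lung. The 5 named in the first direction were Pak1, G0s2, Abcb9, Tnfrsf9 and Uxt, and in the second Cenpk, Cd226, Nqo2, Map2k6 and Ahsa2, and of these Uxt and Cenpk were the least stable (calls lost in 14 of 26 and 11 of 25 settings).

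Tnfrsf9, the costimulatory receptor 4-1BB of the TNF receptor family, measured 404, 434 and 430.3 TPM in lung and 81.1, 53.8 and 51.5 in liver, with 105 to 121 in spleen and 89.9 to 107 in lymph node. Lung was above and liver below every lymphoid library (liver minus lung -2.78, limma adjusted p = 3.15e-09). The NF-kappaB subunits Nfkb2 and Relb and the receptor Tnfrsf18 behaved likewise, with Nfkb2 at 239.8 ± 3.76 TPM in lung, 70.5 ± 2.54 in liver, 83.8 ± 3.73 in spleen and 85.3 ± 1.44 in lymph node. Pak1, a kinase that acts on the cytoskeleton, had 41.7 ± 4.82 TPM in lung and 2.2 ± 0.713 in liver against 5.8 ± 1.31 and 5.32 ± 1.19.

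Cd226, an activating receptor that competes with Tigit for ligands, measured 295, 203 and 171 TPM in liver and 34.4, 43.5 and 37.2 in lung, with 78.6 to 116 in spleen and 91.0 to 113 in lymph node (liver minus lung 2.48, adjusted p = 6.75e-08). Liver was above and lung below every lymphoid library. The abundant chaperones Hspa8 and Hsp90ab1 shared this pattern, with Hspa8 at means of 3147 TPM in liver and 1319 in lung, and 1574 and 2056 in spleen and lymph node. Ahsa2, a cochaperone gene of Hsp90, had 83.7 ± 15.8 TPM in liver and 12.7 ± 2.8 in lung against 46.9 ± 2.44 and 45.9 ± 1.28.

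**Figure D5:**
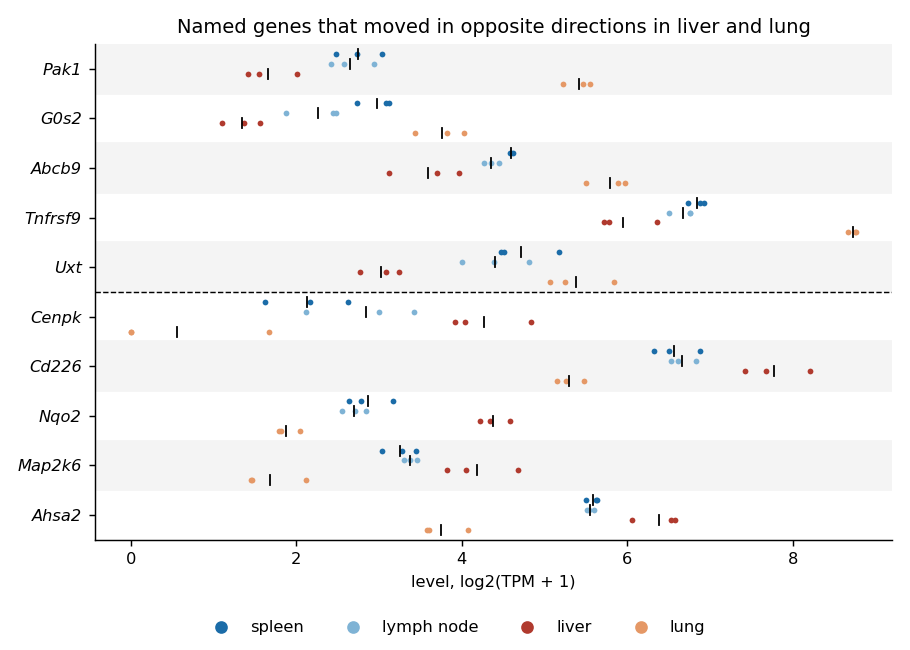
Level in every library, log2(TPM + 1), of the 10 named genes that moved in opposite directions. Above the dashed line are the 5 genes higher in lung and lower in liver, and below it the 5 higher in liver and lower in lung, with lymphoid points between the tissue points and black lines at organ means.

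Of the remaining named genes, several are regulators of signalling. Rgs2, which speeds the shutdown of G protein signals, had 486.3 ± 72.5 TPM in liver and 928.6 ± 121 in lung against 47.2 ± 9.36 and 26.8 ± 2.13, and 379 in blood. Gem, a small GTPase, had 77.7 ± 5.41 and 122.3 ± 13.5 TPM against 4.67 ± 0.444 and 3.95 ± 0.452. Ifrd1, a transcriptional coregulator, had 742.9 ± 9.33 and 687.1 ± 57.5 TPM against 68.3 ± 5.04 and 45.6 ± 7.55, and its difference between liver and lung did not pass (0.12, adjusted p = 0.387). Lilr4b, an inhibitory receptor that myeloid cells carry, had 192.7 ± 18 TPM in liver and 183.8 ± 9.13 in lung against 18.5 ± 2.61 and 4.52 ± 0.41, while summed myeloid markers in liver (169 to 390 TPM) were below every spleen library and above every lymph node library, and were highest in lung. Their part in the value was not tested. The membrane protease Cpm had 73.9 ± 4.9 and 55.1 ± 5.15 TPM against 5.06 ± 0.465 and 4.23 ± 0.227.

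Apart from Izumo1r, Gpr83 and Cxcr5, the named decreases had means of at most 35.9 TPM (Gata1 in lymph node). Angptl2, a secreted protein, had 1.49 ± 0.787 TPM in liver and 1.08 ± 1.19 in lung against 11.97 ± 0.346 and 19.6 ± 0.781. Gata1, best known from red cell development, had 4.47 ± 1.24 and 4.22 ± 2.71 TPM against 25.7 ± 9.9 and 35.9 ± 0.458, although the haemoglobin genes were highest in liver. Cd160 had 1.68 ± 1.73 and 1.23 ± 0.671 TPM against 14.8 ± 4.44 and 11.3 ± 1.67, and the adaptor Abi3 had 6.33 ± 1.59 and 3.53 ± 0.25 against 21.5 ± 3.11 and 29.9 ± 2.08. Ifrd2, the last of the 15, was the least certain: it ranged from 3.58 to 21.2 TPM in liver and from 4.51 to 21.9 in lung against 23.5 to 36.4 in the lymphoid libraries, and its largest adjusted p of 0.0286 ranged from 0.00605 to 0.128 over the alternatives, with the call lost in 11 of 26.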

How the data were processed

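The authors deposited 1 table per library with a TPM value per Ensembl gene ID. Poly(A) RNA had been made into directional libraries, per the labels' protocols, and STAR, RSEM and the mm10 build are named in the submitters' processing notes, with no versions given in the sources used here. GENCODE M21 names matched 55141 of 55487 IDs. Overlapping and near-identical genes may share reads. log2(TPM + 1) of genes whose mean reached 1 TPM in any organ was fitted over all 18 libraries with an organ term in limma 3.58.1 (R 4.3.3, statmod 1.5.0; empirical Bayes with a mean trend and robust option), Benjamini-Hochberg adjusted over all tested genes in each contrast. All organs entered so that they share 1 estimate of spread, although their spread was not equal. Fitted library weights, which fall as spread rises, were 0.234 to 0.262 in liver and 0.314 to 0.408 in lung. In lymph node they were 3.053 to 3.494. SEs and p-values from the shared estimate may therefore understate the error of liver and lung. Figures and exact permutation tests used Python 3.11.15, scipy 1.17.1 and matplotlib 3.10.9. The fit was tested on simulated data.

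Named genes were the 15 per direction (5 for opposite directions) with the largest of the smallest absolute fold changes over the 4 contrasts, at a mean of 10 TPM or more, without clone names, antigen receptor segments and RNAs that lack a poly(A) tail. From each of the 23 gene lists up to 4 members per direction were taken by the same measure, besides its defining genes; others named were chosen after their values were seen. The members and lists were chosen with earlier results of these data known. Alternatives were other pseudocounts, filters, scalings, weights and fits, and leaving out each library. TPM carries no read depth, so no counting error could be given.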

Additional observations from a re-analysis of the deposited data

Results flagged for a closer look

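For 10 named genes liver and lung moved to opposite sides of both lymphoid organs, and the difference itself, liver minus lung on the log2(TPM + 1) scale, passed in limma. Lung was the higher for Pak1 (-3.75), G0s2 (-2.42), Abcb9 (-2.19), Tnfrsf9 (-2.78) and Uxt (-2.35). Liver was the higher for Cenpk (3.71), Cd226 (2.48), Nqo2 (2.50), Map2k6 (2.51) and Ahsa2 (2.63). The genes were chosen for this pattern, so the values describe it. G0s2 is also abundant in bone marrow (87.5 TPM) and blood (45.8 TPM), where myeloid markers summed to 40280 to 40470 and 26860 to 27620 TPM, and lung had the most myeloid RNA of the 4 organs. The part of that RNA in the value was not tested. Cenpk rested on low levels, listed at 0 in 2 of 3 lung libraries.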

How the results depend on the processing

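All 15 named increases kept their direction and call in every alternative that refitted the 4 contrasts and tested them; with organ means no gene was called in the average contrast. Scaling to T cell genes moved the median of all genes from -0.149 to 0.088 and gave 4444 higher and 2333 lower genes in the average contrast, 1293 and 328 in the same direction, 112 opposite genes higher in lung and 29 higher in liver. It gave 2454 and 1579 for liver minus lymph node, 4755 and 2044 for lung minus spleen, and 5079 and 1630 for lung minus lymph node. List medians turned positive there for Treg core (0.272), resting (0.178), inhibitory and costimulatory (0.22), T cell receptor (0.027) and ribosomal genes (0.061). So did the most positive of the 4 contrasts of Gimap1 (0.211), Gimap3 (0.502), Rplp0 (0.055), Rpl13 (0.143), Rps26 (0.244) and Rps15a (0.272). Median-of-ratios factors gave 636 lower genes in the same direction, 2092 lower for liver minus lymph node and 2981 for lung minus lymph node. They turned the median of Treg core (0.085) and the most positive contrast of Gimap1 (0.034) and Gimap3 (0.145). Quantile normalization turned IL-2 and STAT5 (-0.031).

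Fitting 12 libraries left 666 lower genes in the same direction and 17 and 29 opposite genes. Library weights left 635, 16 and 30, with 1470 and 1565 for liver minus spleen. Without a filter 29 genes were higher in lung and lower in liver. Organ means gave 0 and 0 in the average contrast (limma, 2383 at an unadjusted p under 0.05). A log2 fold change of at least 1 left 917 and 1202 in the average contrast, 257 and 233 in the same direction and 1 and 8 opposite, then 908 and 1201 for liver minus spleen, 749 and 1200 for liver minus lymph node, 1537 and 1818 for lung minus spleen, and 1396 and 2142 for lung minus lymph node. Requiring values above 0 in all 12 libraries, chosen after seeing the data, gave 739 and 1039 in the same direction.

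Leaving out 1 library gave 2469 to 2858 higher and 4405 to 5042 lower genes in the average contrast, and 637 to 801 and 839 to 1162 in the same direction. Opposite genes ranged from 24 to 69 (higher in lung) and from 34 to 64 (higher in liver). The first count moved by over 1.5 times without spleen replicate 2 (24), spleen 3 (29), lymph node 1 (26), lymph node 3 (29) or liver 3 (69), the second without lymph node 1 (35) or lymph node 2 (34). Single contrasts ranged over 2024 to 2491 and 2387 to 3107 (liver minus spleen), 1268 to 1773 and 2738 to 3869 (liver minus lymph node), 2686 to 3199 and 3342 to 4114 (lung minus spleen), and 2145 to 2651 and 3800 to 4945 (lung minus lymph node). The cause of these shifts was not tested.

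List medians could not be recomputed without abundant gene classes for the 3 lists those classes make up (heat shock, ribosomal, mitochondrial). The labels do not say whether replicate numbers pair the libraries. Deviations from the organ means correlated at -0.017 to 0.029 over 18 pairs of same-numbered libraries, and at -0.03 to 0.032 for different numbers. These values showed no sign of a pairing but cannot exclude one, because a small shared effect may be lost over all tested genes. A fit with the replicate number as a block gave 726 and 1030 genes in the same direction and 2666 and 4815 in the average contrast.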
